A study of Mus musculus with 6 samples.

Results

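The mouse mitochondrial genome encodes 13 respiratory-chain proteins, 2 ribosomal RNAs and 22 transfer RNAs, and a stretch of it is present a second time in the nucleus, on chromosome 1, where 7 of its genes are annotated as unprocessed pseudogenes. These 44 genes, of 57010 in the deposited table, are described here in the ventricles of hearts taken on postnatal day 14. They were chosen by name, with earlier results of these data known: every gene whose symbol starts with mt-, and the pseudogenes Gm10222, Gm10925, Gm28437, Gm28438, Gm28439, Gm28661 and Gm29216. The libraries were 3 from control mice (replicates 1, 3 and 4) and 3 from Cend1-KO mice (replicates 1, 3 and 4), in which Cend1, known from neural precursors that leave the cell cycle, is knocked out. The labels name the first group control, and the deposited column names call it WT (wild type). Both groups were of the same age and tissue. The strain, the sex, how the allele was made and in which cells it acts, and whether each library came from its own animal, are not stated by the labels. All p-values therefore measure how far these libraries scatter, and that scatter may be technical. Values are the authors' TPM (transcript abundance scaled for gene length), which sum to 1000000 in each library and keep no sequencing depth.

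Each strand of the mitochondrial genome is transcribed as a long precursor. Most of the protein and ribosomal RNA genes are separated by tRNA genes, and cutting the tRNAs out of the precursor releases the mature messengers. Genes read from the heavy strand include both rRNAs, all but one of the protein genes and most tRNAs, whereas mt-Nd6 and 8 of the tRNAs are read from the light strand. In heart muscle, which lives on oxidative phosphorylation, these transcripts are among the most abundant of the cell. Pieces of mitochondrial DNA that were inserted into nuclear chromosomes are known as NUMTs; a young one can be so close to the original that a sequencing read fits both.

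The 7 copies were compared base by base with the mitochondrial genes, using GENCODE M21 transcript sequences on the mm10 build. Over 4149 aligned bases, 7 differed, an identity of 99.8%, and 5 copies had no mismatch at all: Gm28439 against the first 876 bases of mt-Nd4, Gm10222 against mt-Nd4l, Gm28437 against mt-Co3, Gm10925 against mt-Atp6 and Gm28661 against mt-Co2. Gm28438 differed from mt-Nd3 by 1 base of 345, and Gm29216 from the last 492 bases of mt-Co1 by 6. The copies lie on the minus strand of chromosome 1 between 24611535 and 24616197, in the same order as their counterparts on the mitochondrial genome. Compared without gaps, their annotated ends fall at mitochondrial positions 6381 and 11042. For 5 copies the first base's chromosome 1 position and its mitochondrial match added up to 24622578, and for Gm10222 and Gm28439 to 24622577. The nuclear copy is thus shifted by 1 base between Gm28438 and Gm10222, the interval that holds mt-Tr on the mitochondrial genome.

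The first 90 bases of both copies that differ are printed with the matching stretch of the mitochondrial gene, 5′ to 3′ on the transcribed strand, with differing bases in capitals. They show how little sequence separates them.
mt-Co1: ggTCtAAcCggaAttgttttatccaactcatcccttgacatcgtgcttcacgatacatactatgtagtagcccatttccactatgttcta
Gm29216: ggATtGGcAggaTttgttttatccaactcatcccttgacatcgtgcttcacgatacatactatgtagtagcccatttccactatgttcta
mt-Nd3: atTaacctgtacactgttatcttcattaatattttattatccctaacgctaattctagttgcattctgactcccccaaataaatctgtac
Gm28438: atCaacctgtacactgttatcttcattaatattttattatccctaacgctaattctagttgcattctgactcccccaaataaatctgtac

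Positions are counted from 1 at the 5′ end of the mitochondrial gene, with the mitochondrial base first. In mt-Co1 against Gm29216 the differences were T1056A, C1057T, A1059G, A1060G, C1062A and A1066T, all within the first 13 bases of the copy, and in mt-Nd3 against Gm28438 the difference was T3C. As an example of a copy with no mismatch, mt-Nd4l and Gm10222 are printed whole. The capitals mark the last 3 bases of mt-Nd4l, its stop codon, which lie beyond the annotated end of the copy.
mt-Nd4l: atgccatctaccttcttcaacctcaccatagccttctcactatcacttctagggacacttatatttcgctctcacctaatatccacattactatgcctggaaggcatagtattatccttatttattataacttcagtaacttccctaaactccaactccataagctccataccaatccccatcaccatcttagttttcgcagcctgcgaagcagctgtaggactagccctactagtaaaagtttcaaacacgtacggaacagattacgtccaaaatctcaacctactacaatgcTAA
Gm10222: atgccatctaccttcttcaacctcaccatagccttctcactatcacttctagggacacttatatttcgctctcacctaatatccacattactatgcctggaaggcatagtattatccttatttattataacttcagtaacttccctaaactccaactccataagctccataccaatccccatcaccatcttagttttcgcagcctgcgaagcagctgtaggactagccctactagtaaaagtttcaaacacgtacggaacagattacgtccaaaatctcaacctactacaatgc

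The deposited values of the copies were high and moved with their counterparts library by library. Gm10925 had 11727, 11873 and 15042 TPM in the controls (replicates 1, 3 and 4, in that order here and throughout) and 13364, 35240 and 15902 TPM in the Cend1-KO libraries. Its counterpart mt-Atp6, which encodes a membrane subunit of ATP synthase, was at 11807, 11919 and 15166 TPM and at 13520, 35808 and 16096 TPM in the same libraries. Copy and counterpart were close in every library, with a ratio between 0.984 and 0.996. For the other copies that cover nearly a whole gene, the ratio was 0.961 to 0.977 for Gm10222 to mt-Nd4l, 0.952 to 0.982 for Gm28437 to mt-Co3, 0.928 to 0.951 for Gm28661 to mt-Co2 and 1.07 to 1.17 for Gm28438 to mt-Nd3. The 2 copies of partial genes stood lower: Gm28439 to mt-Nd4 at 0.468 to 0.560, and Gm29216 to mt-Co1 at 0.410 to 0.518. With sequences this close, reads of a mitochondrial gene and its copy cannot be told apart where they match. How the authors' counting treated reads that fit more than 1 place is not given in the sources used here, so the split between copy and gene is uncertain.

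**Figure D1:**
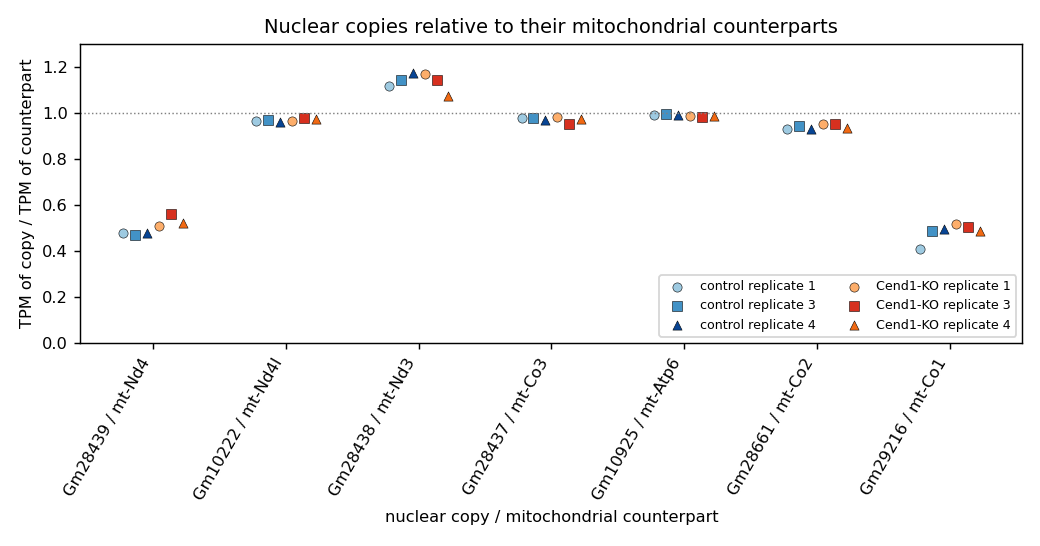
Ratio of the TPM of each chromosome 1 copy to that of its mitochondrial counterpart (vertical axis, linear, no unit), 1 point per library. The 4 copies other than Gm28438 that cover nearly a whole gene lie just under 1 in every library, Gm28438 lies above 1, and Gm28439 and Gm29216, which match only part of their gene, lie between 0.410 and 0.560.

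The remaining copies are given by library in the same order, controls and then Cend1-KO. Gm28437 was at 23106, 25503 and 24348 TPM and at 21983, 41364 and 27247 TPM. Gm28661 was at 22137, 18744 and 22620 TPM and at 13827, 34354 and 20332 TPM. Gm28438 was at 7886, 9087 and 11021 TPM and at 8418, 14985 and 11462 TPM. In all 3, Cend1-KO replicate 3 was the highest library and Cend1-KO replicate 1 lay within or below the controls. Gm10222 was at 3718, 2630 and 2868 TPM and at 3472, 8530 and 3809 TPM. Gm29216 was at 14689, 15662 and 16031 TPM and at 16176, 29206 and 19827 TPM. Gm28439 was at 3298, 2802 and 3349 TPM and at 3522, 8940 and 4234 TPM. Gm29216 and Gm28439 were the copies whose groups did not overlap, with every Cend1-KO library above every control. Of the 7 ratios of copy to counterpart, 5 overlapped between groups, 1 was higher in every Cend1-KO library and 1 lower. The higher one was Gm28439 to mt-Nd4: the control libraries averaged 0.474 ± 0.0055 and the Cend1-KO libraries 0.530 ± 0.027 (SD, n = 3 per group). The lower one was Gm10925 to mt-Atp6, at 0.993, 0.996 and 0.992 in controls and 0.988, 0.984 and 0.988 in Cend1-KO. Neither ratio was tested. Together the copies held 8.94% ± 0.51 of TPM in controls and 8.08%, 17.3% and 10.3% in Cend1-KO replicates 1, 3 and 4.

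Before the group comparison, 1 library has to be set apart. Cend1-KO replicate 3 had 34.9% of its TPM in mitochondrial-genome genes, against 18.3% to 19.9% in controls and 17.9% and 22.9% in Cend1-KO replicates 1 and 4. Since TPM sum to a fixed total, less is left for the other genes of that library. The 44 genes made up 52.1% of its TPM and 25.9% to 33.2% of each of the others. With TPM weighted by gene length these shares were 21.8% and 8.22% to 11.7%. Cend1, the targeted gene, had 1.44 to 1.99 TPM in controls, and each of the 3 Cend1-KO libraries lists it at 0. Summed markers of heart muscle cells (10 genes, among them Myh6 and Tnnt2, none at 0) were at 63148 to 70557 TPM in controls and 35366 to 52641 TPM in Cend1-KO. Limma called 0 of these 10 genes (7 at an unadjusted p under 0.05). Markers of other cell types are given in the same way, controls first. Red-cell markers (7 genes) were at 1391 to 4478 and 10640 to 24520 TPM, endothelial markers (8 genes) at 1514 to 1826 and 2200 to 4912 TPM, and fibroblast markers (8 genes) at 1243 to 2495 and 2987 to 4359 TPM, none of them at 0 in any library. Called higher were 4 of 6 tested red-cell, 0 of 8 endothelial (3 at an unadjusted p under 0.05) and 1 of 8 fibroblast markers. Myeloid markers (8 genes, none at 0) were at 592 to 915 and 768 to 1546 TPM, which overlap, and limma called 0 of them (2 at an unadjusted p under 0.05). Fat-cell markers (6 genes, of which Adipoq, Retn, Cfd, Lep and Cidec were at 0 in a library) were at 0.017 to 2.29 and 12.7 to 21.1 TPM, with 3 of 3 tested called higher. Lung epithelial markers (6 genes, of which Sftpc, Sftpb, Sftpa1, Sftpd and Scgb1a1 were at 0 in a library) were at 0.858 to 1.08 TPM in controls; Cend1-KO replicate 1 had 493, replicate 3 had 0.433 and replicate 4 had 793 TPM. Of all 13542 genes tested, limma called 1.7%, and 15.4% had an unadjusted p under 0.05. Median-of-ratios scaling sets the typical gene level between libraries. After it, limma called higher 6 of 6 red-cell, 3 of 8 endothelial, 5 of 8 fibroblast, 2 of 8 myeloid and 3 of 3 fat-cell markers. It called 0 of 10 heart muscle markers, where 10.3% of all genes were called. The part of these marker shifts in the mitochondrial values was not tested. In bulk tissue, fewer cells of a type and less RNA per cell cannot be told apart, nor can fewer mitochondria and less RNA in each.

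Of the 44 genes, all had at least 1 TPM in every library (lowest 2.24, mt-Tv in control replicate 3), so all were tested. Each difference is the Cend1-KO mean less the control mean of log2(TPM + 1), from limma fitted over 13542 genes, and a gene is called at a Benjamini-Hochberg adjusted p under 0.05 over that whole table. None of the 44 was called, where 1.7% of all genes tested were (230 of 13542). At an unadjusted p under 0.05 there were 8 of the 44, and 15.4% of all genes. The smallest adjusted p was 0.227, for mt-Tc. Differences were above 0 for 34 of the 44 and for 37.6% of all genes, with medians of 0.32 and -0.11. Median-of-ratios scaling, which sets the typical gene level between libraries, gave medians of 0.46 for the 44 and 0.0020 for all genes. Leaving out Cend1-KO replicate 3 brought them to 0.12 and 0.06. In that fit without Cend1-KO replicate 3, 2 of the 44 were called, both higher, namely mt-Tc and mt-Tn, where 6.09% of all genes were called and 3.77% called higher. Without that library and after median-of-ratios scaling, limma called 0 of the 44 (0 at an unadjusted p under 0.05), with medians of 0.06 and 0.0025, where 10.1% of all genes were called. Limma called none of the 44 under the other alternatives either. The share of all genes called was then 10.3% after median-of-ratios scaling, 7.1% with all genes but the 44 scaled to the same sum, 1.58% with a pseudocount of 0.1 TPM, 0% with no filter, 1.71% with copies summed with their counterparts and 5.45% with a replicate block. It was 0.834%, 0.561% and 1.83% without control replicates 1, 3 and 4, 4.94% and 0.812% without Cend1-KO replicates 1 and 4, and 6.3% with the scaling to the other genes and without Cend1-KO replicate 3.

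**Figure D2:**
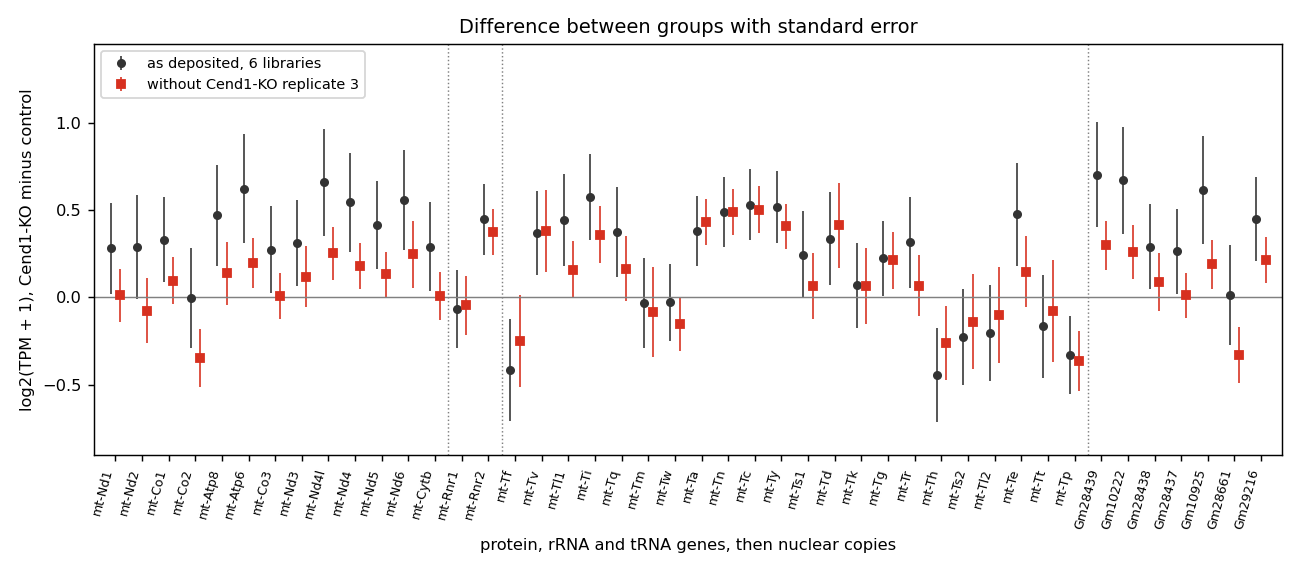
Difference between groups for each of the 44 genes (vertical axis, log2(TPM + 1), Cend1-KO minus control; bars are the standard error from limma), with all 6 libraries in grey and without Cend1-KO replicate 3 in red. Without that library most protein genes and copies move toward 0 and their bars shorten, while mt-Ta, mt-Tn and mt-Tc stay near their values.

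Groups did not overlap for 8 of the 44, all with Cend1-KO higher, where 5.67% of all tested genes did so in that direction, and for 0 with Cend1-KO lower, where 18.6% did. The 8 were mt-Ta, mt-Tn, mt-Tc, mt-Ty, mt-Tg, mt-Rnr2, Gm28439 and Gm29216. None of them passed the test as deposited. Overlap of TPM between groups was read as deposited, here and throughout, and was not recomputed after scaling. Median-of-ratios scaling divides Cend1-KO replicate 1 by 1.24 and the controls by 0.985 to 1.13, so groups that lie close can then overlap.

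Complex I, the NADH dehydrogenase that feeds electrons into the chain, takes 7 of the protein genes, and their levels spanned a wide range. mt-Nd1, part of its membrane arm, was at 17683, 15943 and 17840 TPM in controls and 14237, 30275 and 20945 TPM in Cend1-KO. mt-Nd2 was at 6748, 5019 and 6142 TPM and 4569, 11968 and 6918 TPM, and both genes had Cend1-KO replicate 1 below and replicate 3 well above the controls. mt-Nd3 was at 7069, 7962 and 9390 TPM and 7209, 13100 and 10680 TPM. mt-Nd4 was at 6915, 5985 and 7001 TPM and 6924, 15963 and 8104 TPM, and mt-Nd4l, whose reading frame overlaps its start, was at 3854, 2711 and 2984 TPM and 3594, 8730 and 3907 TPM. For these 3, Cend1-KO replicates 3 and 4 were above every control and replicate 1 was within them. mt-Nd4l had the largest difference of the protein genes, 0.66 (SE 0.31, limma adjusted p = 0.325), and mt-Nd4 had 0.54 (SE 0.28, adjusted p = 0.380). Without Cend1-KO replicate 3 these were 0.25 and 0.18. mt-Nd5 was at 4092, 3496 and 3811 TPM and 4046, 7469 and 4260 TPM. mt-Nd6, the light-strand protein gene, was lowest of all 13, at 1695, 1633 and 2373 TPM and 1872, 4241 and 2639 TPM, with a difference of 0.56 (SE 0.28, adjusted p = 0.372), and of 0.25 without Cend1-KO replicate 3.

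Cytochrome c oxidase, complex IV, passes electrons to oxygen, and its 3 mitochondrial subunits were the most abundant of the messengers. mt-Co1, the catalytic subunit, was at 35816, 32072 and 32249 TPM in controls and 31239, 58047 and 40574 TPM in Cend1-KO, the highest value of any of the 44 in every library. mt-Co3 was at 23604, 26040 and 25085 TPM and 22389, 43427 and 27962 TPM. mt-Co2, which carries the copper centre that receives electrons from cytochrome c, was at 23843, 19893 and 24308 TPM and 14545, 36126 and 21711 TPM. Its difference was -0.01 (SE 0.29, limma adjusted p = 0.997) with all libraries. It was -0.35 (SE 0.17, adjusted p = 0.234) without Cend1-KO replicate 3, the largest in size of the 13 protein genes in that fit. Within the mitochondrial transcripts alone, mt-Co2 held 12.4%, 10.9% and 12.2% of mt- TPM in controls and 8.14%, 10.4% and 9.48% in Cend1-KO. These groups did not overlap. The shares of mt-Tp (0.287% to 0.375% and 0.148% to 0.254%) and mt-Tw (0.0655% to 0.0800% and 0.0468% to 0.0654%) were also lower without overlap. Those of the other mt- genes overlapped, among them mt-Co1 at 16.2% to 18.6% and 16.6% to 17.7%. For mt-Tw the lowest control share was 0.0655% and the highest Cend1-KO share 0.0654%. With 37 mt- genes compared in so few libraries, some shares can separate by scatter alone, and none was tested.

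Complex III has mt-Cytb, cytochrome b, which was at 13605, 11847 and 12843 TPM in controls and 11255, 23021 and 14612 TPM in Cend1-KO. ATP synthase has mt-Atp6, given above, and mt-Atp8, which overlaps the start of mt-Atp6 by some bases and was at 7405, 6762 and 7377 TPM and 6182, 15705 and 10075 TPM. The difference was 0.29 (SE 0.26, limma adjusted p = 0.620) for mt-Cytb and 0.62 (SE 0.31, adjusted p = 0.360) for mt-Atp6. Leaving out Cend1-KO replicate 3 gave 0.0090 for mt-Cytb and 0.20 for mt-Atp6.

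By control means, TPM fell 17.6-fold from mt-Co1 to mt-Nd6. Neighbours whose control libraries overlapped were mt-Co3 and mt-Co2, mt-Atp6 and mt-Cytb, mt-Nd5 and mt-Nd4l, and the run mt-Nd3, mt-Atp8, mt-Nd4 and mt-Nd2, and their order is not resolved by these libraries. The other steps of the order, mt-Co1 to mt-Co3, mt-Co2 to mt-Nd1, mt-Nd1 to mt-Atp6, mt-Cytb to mt-Nd3, mt-Nd2 to mt-Nd5 and mt-Nd4l to mt-Nd6, had no overlap among the controls. These are levels as deposited, and for genes with a copy on chromosome 1 they carry the uncertainty given above.

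**Figure D3:**
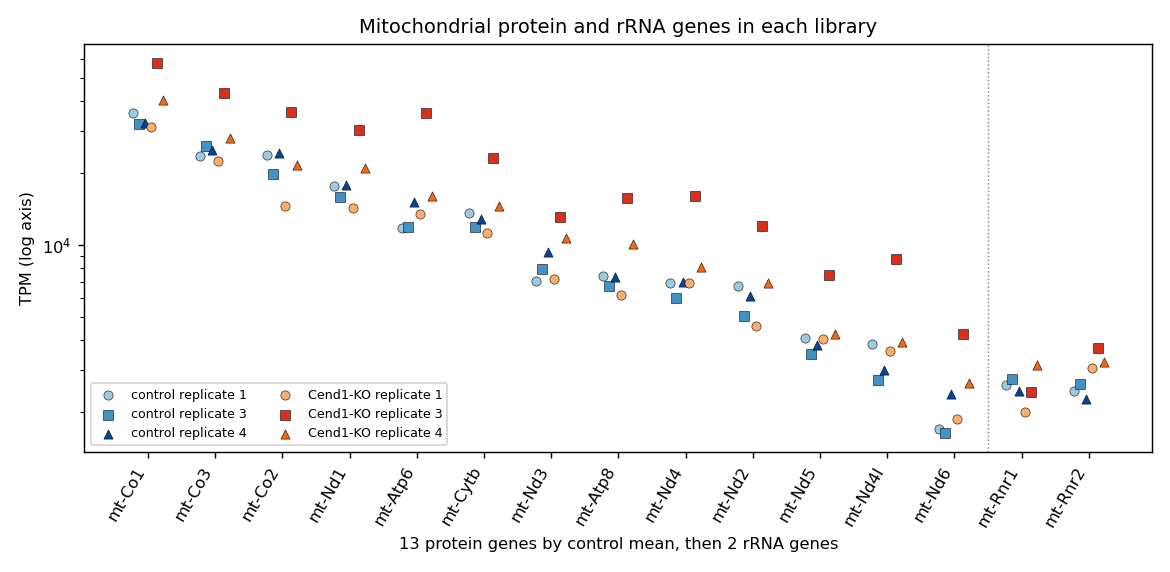
TPM on a log axis of the 13 mitochondrial protein genes, ordered by control mean, and of the 2 rRNA genes (right of the dotted line), 1 point per library. Cend1-KO replicate 3 is the highest library for all 13 protein genes and for mt-Rnr2, and for mt-Rnr1 it lies just below the controls.

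Cend1-KO replicate 3 was not raised evenly. Relative to the control mean, its 13 protein genes were 1.59-fold to 2.76-fold higher. mt-Atp6, mt-Nd4l and mt-Nd4 were at 2.76, 2.74 and 2.41 times the control mean, and mt-Co2 and mt-Nd3 at 1.59 and 1.61. The 5 protein genes with no part in the chromosome 1 block (mt-Nd1, mt-Nd2, mt-Nd5, mt-Nd6 and mt-Cytb) were 1.76-fold to 2.23-fold higher in that library, and the 6 wholly inside it 1.59-fold to 2.76-fold. A raised level there was therefore also measured in genes that have no counterpart among the 7 copies. In Cend1-KO replicate 1 the protein genes were at 0.641 to 1.13 times the control mean, and in replicate 4 at 0.957 to 1.40 times.

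The 2 rRNA genes differed from each other in that library. mt-Rnr1, the small ribosomal RNA, was at 2600, 2749 and 2442 TPM in controls and 2006, 2413 and 3145 TPM in Cend1-KO, so replicate 3 was at 0.929 of the control mean. mt-Rnr2, the large ribosomal RNA, was at 2445, 2622 and 2262 TPM and 3066, 3689 and 3250 TPM, with every Cend1-KO library above every control and replicate 3 at 1.51 times the control mean. Its difference was 0.45 (SE 0.20, limma adjusted p = 0.314), and 0.37 (SE 0.13, adjusted p = 0.104) without Cend1-KO replicate 3. mt-Rnr1 had a difference of -0.07 (SE 0.22, adjusted p = 0.919). In molecules of tissue RNA the ribosomal RNAs are far more abundant than the messengers, but here both lay, in every library, below all protein genes other than mt-Nd6 and mt-Nd4l. The labels do not say whether libraries were selected for poly(A) tails or depleted of ribosomal RNA, so these levels describe the libraries rather than the tissue.

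The 22 tRNA genes split by strand. The 8 light-strand tRNA genes had mean levels of 213 to 6710 TPM with a median of 4118, whereas the 14 heavy-strand ones had 3.79 to 939 TPM with a median of 58.2. Of the light-strand genes 6 averaged above 1000 TPM and of the heavy-strand genes 0. The exceptions at the low end of the light strand were mt-Tq and mt-Tp. The kit is not stated to mark strand, so transcripts of either strand across a tRNA gene cannot be told apart. At 59 to 75 bases, these genes are also shorter than usual sequencing fragments, and how reads that reach into a neighbour were counted is not given in the sources used here.

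**Figure D4:**
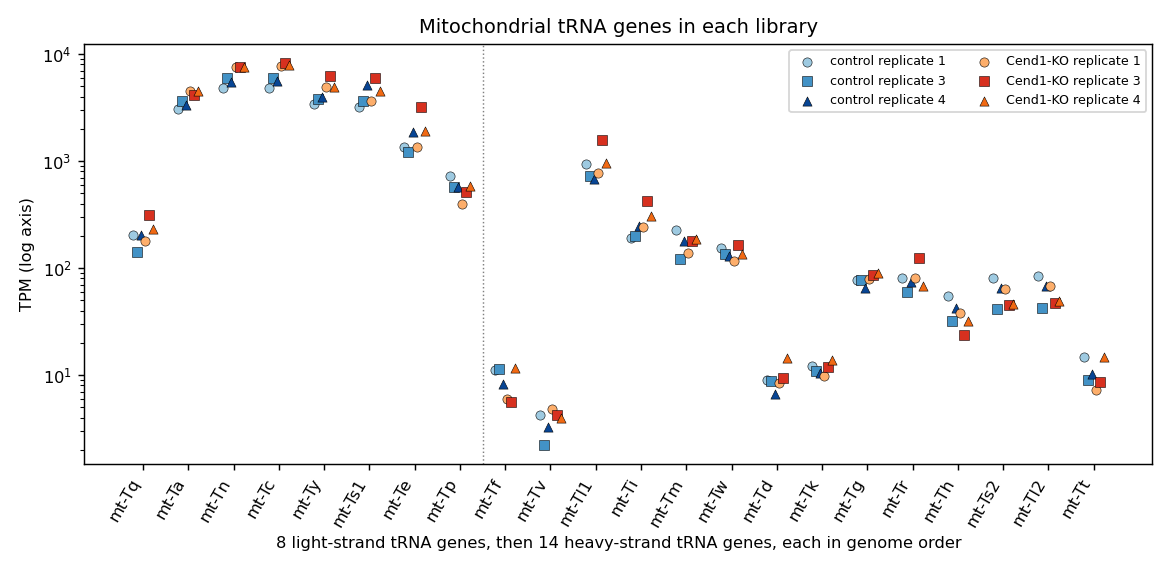
TPM on a log axis of the 22 mitochondrial tRNA genes, 1 point per library, with the 8 light-strand genes left of the dotted line and the 14 heavy-strand genes right of it, each in genome order. The light-strand genes mt-Ta, mt-Tn, mt-Tc, mt-Ty and mt-Ts1 lie at 3078 TPM or more in every library, and 10 of the 14 heavy-strand genes average under 100.

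The 4 tRNA genes for alanine, asparagine, cysteine and tyrosine lie side by side in 309 bases (mitochondrial positions 5018 to 5326, light strand), between mt-Nd2 and mt-Co1. They are printed because they were the most abundant of the tRNAs together with mt-Ts1. Another reason is that no Cend1-KO library of theirs overlapped a control as deposited. The phenylalanine and valine tRNA genes, which border mt-Rnr1 on the heavy strand, are printed because they had the lowest mean levels of the 22. Capitals mark the anticodon.
mt-Ta: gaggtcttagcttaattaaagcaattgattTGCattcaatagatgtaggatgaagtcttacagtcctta
mt-Tn: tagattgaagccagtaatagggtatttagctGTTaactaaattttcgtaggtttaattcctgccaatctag
mt-Tc: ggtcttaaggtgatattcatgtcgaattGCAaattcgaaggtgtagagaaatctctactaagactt
mt-Ty: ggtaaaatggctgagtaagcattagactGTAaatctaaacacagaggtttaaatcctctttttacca
mt-Tf: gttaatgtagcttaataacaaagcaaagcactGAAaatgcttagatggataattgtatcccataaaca
mt-Tv: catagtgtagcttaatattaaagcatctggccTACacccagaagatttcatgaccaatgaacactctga

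mt-Tc was at 4848, 5995 and 5656 TPM in controls and 7678, 8243 and 7841 TPM in Cend1-KO. mt-Tn was at 4826, 5936 and 5514 TPM and 7547, 7569 and 7620 TPM. Both had Cend1-KO libraries close to each other and above all controls, also in replicate 1, where 7 of the 13 protein genes were below every control and 6 within the controls. Their differences were 0.53 (SE 0.20, limma adjusted p = 0.227) and 0.49 (SE 0.20, adjusted p = 0.271), and without Cend1-KO replicate 3 mt-Tc had 0.50 (SE 0.13, adjusted p = 0.0345) and mt-Tn 0.49 (SE 0.13, adjusted p = 0.0384). Over all alternatives their adjusted p ran from 0.0345 to 0.789 and from 0.0384 to 0.820. mt-Ty was at 3384, 3836 and 3996 TPM and 4958, 6225 and 4923 TPM. mt-Ta was at 3078, 3655 and 3377 TPM and 4558, 4101 and 4492 TPM. These 2 also had every Cend1-KO library above every control, with differences of 0.52 (SE 0.21, adjusted p = 0.259) and 0.38 (SE 0.20, adjusted p = 0.386). Because the 4 genes adjoin each other, a fragment can cover several of them, and they are not 4 separate observations. Together they held 1.80% ± 0.17 of all TPM in the control libraries and 2.53% ± 0.077 in the Cend1-KO libraries (SD, n = 3 per group). As a share of mt- TPM the groups overlapped, at 8.37% to 10.6% in controls and 13.8%, 7.49% and 10.9% in Cend1-KO replicates 1, 3 and 4.

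mt-Ts1, a serine tRNA whose gene faces the end of mt-Co1 on the other strand, was at 3203, 3660 and 5118 TPM in controls and 3674, 5938 and 4566 TPM in Cend1-KO. mt-Te, the glutamate tRNA next to mt-Nd6, was at 1359, 1203 and 1884 TPM and 1364, 3191 and 1903 TPM. In Cend1-KO replicate 3 it was 2.15-fold above the control mean, near the 2.23-fold of mt-Nd6. Across the 14 heavy-strand tRNA genes Cend1-KO replicate 3 ranged from 0.549 to 1.998 times the control mean, and 7 of the 14 had a difference above 0 as deposited, 9 after median-of-ratios scaling and 11 with scaling to the other genes. The lowest were mt-Th at -0.44 (SE 0.27, limma adjusted p = 0.457) and mt-Tf at -0.42 (SE 0.29, adjusted p = 0.522), and the highest was mt-Ti at 0.57 (SE 0.25, adjusted p = 0.288). Among light-strand genes mt-Tp had a difference below 0, -0.33 (SE 0.22, adjusted p = 0.507).

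The respiratory complexes combine these products with subunits made from nuclear genes, which had the opposite sign as deposited. Of 80 tested nuclear subunits of complexes I to V, none was called by limma, and 28 had an unadjusted p under 0.05, as had 15.4% of all genes. Under the alternatives that count is given with the count over all 13542 genes in brackets. It was 13 (3834) after median-of-ratios scaling, 12 (3337) with scaling to the other genes and 17 (2326) with the block. Without control replicates 1, 3 and 4 it was 5 (1074), 5 (1272) and 21 (1549). Without Cend1-KO replicates 1, 3 and 4 it was 26 (3678), 30 (3084) and 33 (1624). Scaled and without Cend1-KO replicate 3, it was 7 (4146) by median of ratios and 20 (3463) by the other genes. Under both scalings, with or without that library, a smaller share of the subunits than of all genes had such a p. Differences were below 0 for 75 of the 80, with a median of -0.39 against -0.11 over all genes, and median-of-ratios scaling brought these to -0.24 and 0.0020. Without Cend1-KO replicate 3 they were -0.24 for the subunits and 0.06 for all genes. With the replicate number as a block, limma called 2, both lower, where 5.45% of all genes were called. Those with the smallest p per complex included Ndufv3, at 839 ± 87.1 TPM in controls and 471 ± 214.3 TPM in Cend1-KO, and Ndufb10, at 1460 ± 176.2 and 899 ± 319.6 TPM (SD, n = 3 each; limma adjusted p = 0.163 and 0.193). Sdhc of complex II, the complex with no mitochondrial-genome subunit, was at 245 ± 10.1 and 162 ± 29.2 TPM (SD, n = 3 each; limma adjusted p = 0.207), and Sdha had adjusted p = 0.278. Uqcrb and Uqcrc1 of complex III had adjusted p = 0.211 and 0.242, Cox8a and Cox5b of complex IV 0.197 and 0.243, and Atp5g1 and Atp5g3 of complex V 0.236 and 0.253.

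The ratio of summed mitochondrial to summed nuclear subunits is taken within a library and so does not depend on scaling. For complex I, with 7 mitochondrial and 37 nuclear subunits, it was 1.77, 1.501 and 2.04 in controls and 1.86, 6.19 and 2.42 in Cend1-KO. For complex IV, with 3 and 14 subunits, it was 2.77, 2.58 and 3.09 and then 2.55, 7.66 and 3.26. In both, Cend1-KO replicate 1 lay within or just below the controls, replicate 4 just above them and replicate 3 far above. For complex III the ratio of mt-Cytb to 9 nuclear subunits was 0.880 to 1.11 in controls and 0.959, 3.13 and 1.28 in Cend1-KO. For complex V, with 16 nuclear subunits, it was 0.526 to 0.773 and then 0.724, 2.48 and 0.896. The groups overlapped for all 4 complexes.

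**Figure D5:**
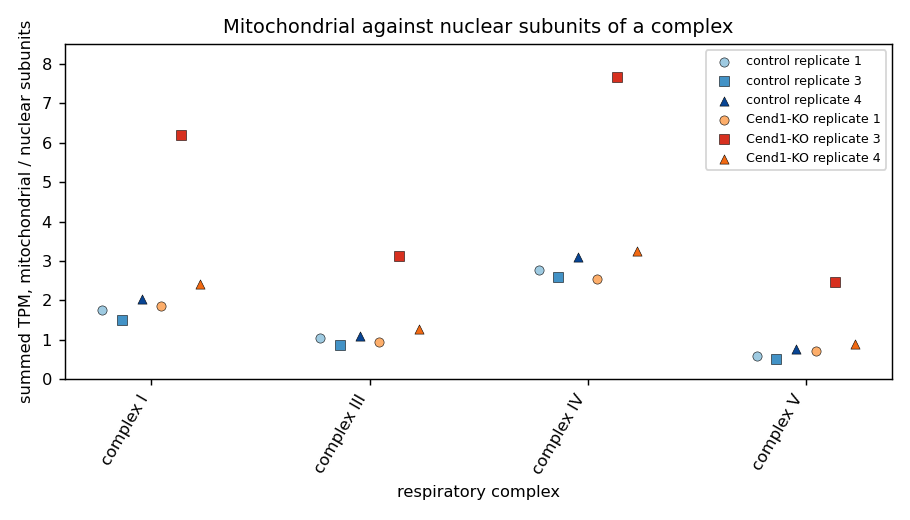
Summed TPM of the mitochondrial subunits divided by summed TPM of the nuclear subunits of complexes I, III, IV and V (vertical axis, linear, no unit), 1 point per library. Cend1-KO replicate 3 stands at 6.19, 3.13, 7.66 and 2.48, above the other 5 libraries, which lie together.

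The nuclear genes that copy, transcribe, process and translate the mitochondrial genome were measured as 5 lists with 95 tested genes. Of these, 1 fell and 0 rose, where 1.7% of all genes tested were called (230 of 13542, 123 of them lower). The median difference was -0.33 against -0.11 over all genes. Median-of-ratios scaling brought the list median to -0.20. Leaving out Cend1-KO replicate 3 gave -0.21, against 0.06 over all genes. The gene that fell was Ppargc1a, the coactivator PGC-1α, which drives nuclear genes for mitochondria. It was at 39.3, 24.7 and 25.7 TPM in controls and 11.7, 12.4 and 10.2 TPM in Cend1-KO, with no overlap between groups (difference -1.28, SE 0.25, limma adjusted p = 0.0219). Its limma adjusted p was 0.223 with no filter on low values, 0.172 without control replicate 1, 0.0604 without control replicate 3 and 0.104 without Cend1-KO replicate 4, so the call is lost under each of these alternatives. Of 20 genes of mitochondrial DNA upkeep and transcription, which include the polymerase Polrmt and the packaging factor Tfam, 0 were called. The smallest p in that list were those of Atad3a, a membrane protein bound to the mitochondrial nucleoid, at 26.1 ± 2.23 and 13.7 ± 3.44 TPM (SD, n = 3 each; limma adjusted p = 0.0990, and with median-of-ratios scaling 0.0061), and of the exonuclease Mgme1 (adjusted p = 0.382). Of 31 tested RNA processing and stability genes 0 were called. The helicase Supv3l1, which takes part in the breakdown of mitochondrial RNA, was at 18.1 ± 0.80 and 10.2 ± 0.85 TPM (SD, n = 3 each, limma adjusted p = 0.126). The rRNA methyltransferase Mrm3 had limma adjusted p = 0.183, and with median-of-ratios scaling 0.0191. Of 22 genes for tRNA synthetases and related enzymes 0 were called. The limma adjusted p was 0.183 for Sars2 (0.0261 under median-of-ratios scaling) and 0.257 for Qrsl1, which is not itself a synthetase. Of 12 translation factors 0 were called. The elongation factors Tufm, at 173 ± 12.5 and 102 ± 22.5 TPM, and Tsfm, at 48.7 ± 0.99 and 27.9 ± 9.77 TPM (SD, n = 3 each), had limma adjusted p = 0.126 and 0.162, which median-of-ratios scaling brought to 0.0454 and 0.0213. Ppargc1b, a relative of Ppargc1a, had adjusted p = 0.218. Median-of-ratios scaling left Supv3l1, Mgme1, Qrsl1 and Ppargc1b uncalled, at limma adjusted p = 0.0675, 0.0795, 0.174 and 0.0684. Over the 5 lists, median-of-ratios scaling gave 6 genes that fell and 0 that rose, where 10.3% of all genes were called. The sum of the heart muscle cell markers was lower in every Cend1-KO library than in every control, and its part in these lists was not tested.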

How the data were processed

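RNA of heart ventricles was sequenced in 3 control and 3 Cend1-KO libraries. Per the labels' protocols, TRIzol RNA and the NEBNext Ultra RNA kit were used. Per the submitters' processing notes, reads were handled with HISAT2 2.0.5, featureCounts 1.5.0-p3, fastp and CASAVA, on mm10. The authors deposited TPM, from which depth cannot be recovered; how TPM were computed is not given in the sources used here. Each table column was assigned by the column name its sample's description gives. Of identifiers that share a symbol, the one with the higher mean was used in lists. Symbols, lengths and sequences came from GENCODE M21 (52029 of 57010 identifiers matched).

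log2(TPM + 1) was fitted with limma 3.58.1 in R 4.3.3 (trend, robust prior; genes reaching 1 TPM in 3 or more libraries; Benjamini-Hochberg adjusted p under 0.05), and the fit was tested on simulated data. Copies were aligned with Biopython 1.88, and then compared without gaps. Every protein and rRNA gene and copy is named, with the 6 most abundant tRNAs and, per nuclear list, called genes and the 2 smallest p; further tRNAs and marker genes were named after their values were seen. Members and lists were chosen with earlier results of these data known. Alternatives were other scalings, pseudocount, filter, replicate block, summed copies, length weights and leaving out each library.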

Additional observations from a re-analysis of the deposited data

How the results depend on the processing

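The count of 0 called among the 44 genes held under median-of-ratios scaling, scaling to the other genes, a pseudocount of 0.1 TPM, no filter, the replicate block, copies summed with their counterparts, and each library left out except Cend1-KO replicate 3 (range 0 to 2). Over all genes 230 calls became 1396 after median-of-ratios scaling, 962 with all genes but the 44 scaled to the same sum, 0 with no filter (2894 at an unadjusted p under 0.05) and 738 with the replicate block, and ranged from 76 to 825 with 1 library left out. Without Cend1-KO replicate 3, chosen after seeing the data, these scalings gave 1369 and 853. Higher calls were 107 of 230, 836 of 1396 and 659 of 962. For the 5 gene-expression lists the 1 call became 6, 4, 0 and 3 under the same alternatives, 10 and 4 under the scalings without that library, and 0 to 5 with 1 library left out. For nuclear subunits the 0 calls became 2 with the replicate block.

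Signs turned for genes that were not called. Above 0 were 34 of the 44 as deposited, and 38 and 40 under the 2 scalings. Over all genes 37.6%, 50.3% and 57.3% were above 0. Without Cend1-KO replicate 3 the counts were 32, 26 and 32 of the 44, and the shares of all genes 56.5%, 50.2% and 59.5%. Copies summed with their counterparts gave 28 of 37, and 37.6% of all genes. Under the 2 scalings of all libraries, mt-Co2 turned to 0.14 and 0.21 and mt-Rnr1 to 0.075 and 0.15. There mt-Tm turned to 0.11 and 0.18 and mt-Tw to 0.11 and 0.19. Under the second alone mt-Tl2 turned to 0.0094 and mt-Tt to 0.032, and with copies summed mt-Co2 turned to 0.0040. Among the proteins, rRNAs, copies and 6 most abundant tRNAs with a library left out, mt-Co2 ran from -0.35 to 0.31, mt-Rnr1 from -0.24 to 0.087, Gm28661 from -0.33 to 0.33 and mt-Nd2 from -0.076 to 0.62. Without Cend1-KO replicate 3, median-of-ratios scaling gave -0.056 for Gm28437, -0.40 for Gm28661, -0.055 for mt-Nd1, -0.14 for mt-Nd2, -0.059 for mt-Co3, -0.058 for mt-Cytb and -0.0016 for mt-Ts1, and scaling to the other genes gave -0.30 for Gm28661 and -0.044 for mt-Nd2. The mt- share differed by 6.04 percentage points between groups, by 1.21 without Cend1-KO replicate 3 and by 9.72 without Cend1-KO replicate 1; that of the copies differed by 2.94, 0.241 and 4.83. The cause was not tested.

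The labels do not say whether same-numbered libraries belong together, and the column names number some of them differently. Deviations from the group means correlated at -0.172, 0.0441 and -0.12 for same-numbered libraries. For differently numbered ones they correlated at -0.109 to 0.204. So few libraries cannot decide whether the numbers pair them. TPM hold no depth, so no counting error can be given.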
